A study of Mus musculus with 19 samples.

Results

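The genes of peptide presentation by the major histocompatibility complex (MHC) were examined in livers of mice with thioacetamide (TAA)-induced fibrosis and of mice given vehicle. The 10 genes were chosen by their role in presentation, with earlier results of these data known, among the 31053 genes of the deposited table. They are 6 of the class I route (H2-K1, H2-D1, B2m, Tap1, Tap2 and Tapbp) and 4 of the class II route (H2-Aa, H2-Ab1, H2-Eb1 and Cd74). All 10 were found in the table and all 10 passed the filter on low counts in each comparison. RNA came from livers of male C57BL/6 mice (strain label C57BL6J) in 3 groups. Their age is given as 6 to 8 weeks. This cannot be the age at sampling of the mice given TAA, whose livers were taken 4 weeks after an injection that followed 10 weeks of TAA. The vehicle group (5 libraries) received PBS. The AAV-GFP group (7 libraries) received TAA at rising doses for 12 weeks and, after 10 weeks, an adeno-associated vector of serotype 8 (AAV8) with green fluorescent protein under the TBG promoter. The AAV-miR-34b/c group (7 libraries) received the same TAA course and AAV8 vectors with miR-34b and miR-34c under the same promoter, and livers of both vector groups were taken 4 weeks after injection. TAA is a hepatotoxin that is activated in hepatocytes, and TBG is a hepatocyte promoter, so the transgenes were directed to hepatocytes while the RNA came from whole liver. The labels of the vehicle group name no vector, so effects of TAA and of AAV cannot be told apart in comparisons with vehicle.

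MHC class I molecules are made of a heavy chain (H2-K1 and H2-D1 are the classical ones of this strain) and β2-microglobulin (B2m). They display peptides of cytosolic proteins on nearly all cells, after the TAP1 and TAP2 transporter has carried the peptides into the endoplasmic reticulum and tapasin (Tapbp) has held the empty heavy chain next to it. MHC class II molecules are pairs of an α and a β chain that display peptides of ingested proteins, mainly on dendritic cells, B cells and activated macrophages, and Cd74 encodes the invariant chain that occupies their groove until loading. Mice of the b haplotype, as C57BL/6, make the I-A pair (H2-Aa and H2-Ab1) but no I-E α chain, although H2-Eb1, the I-E β chain, is transcribed. Of the 10 genes, 8 lie on chromosome 17 between positions 33915899 and 35267499 of GRCm38, where the MHC is located, B2m lies on chromosome 2 (122147686 to 122153083) and Cd74 on chromosome 18.

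The libraries held 2214073 to 5208405 counts (median 2991704). The hepatocyte markers (8 genes, among them Alb, Ttr and Apoa1) summed to 56182 to 88691 CPM (counts scaled to a common library size) over the 19 libraries. Of 52 pairs of libraries within a group, 7 had a coefficient of variation beyond counting noise under 0.2 (0.078 to 0.196, and 0.202 to 0.43 in the other 45) and are called close pairs, a chosen limit and not a gap, since AAV-GFP 3 and 4 (0.196) lay next to AAV-GFP 1 and 3 (0.202): vehicle 1 and 4, vehicle 3 and 5, AAV-GFP 1 and 2, AAV-GFP 3 and 4, and AAV-miR-34b/c 1 and 2, 3 and 4, and 5 and 7. The labels call the libraries biological replicates, and whether a pair shares a mouse, cage or day is not given, so p-values measure the spread between these libraries. Calls that were lost when a pair was left out are given with their adjusted p.

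Between the fibrotic groups, none of the 10 MHC genes passed the test (edgeR's quasi-likelihood test with Benjamini-Hochberg adjustment over all genes, threshold 0.05), whereas 3.36% of all 9252 genes tested did (1.95% called higher with AAV-miR-34b/c, 1.42% called lower). At an unadjusted p under 0.05 there were 2 (H2-Ab1 and H2-Eb1, both lower with AAV-miR-34b/c), beside 1414 of all 9252 genes. DESeq2 and limma-voom also called 0 of the 10, beside 574 and 813 genes in all. Between AAV-GFP and vehicle, edgeR again called 0 of 10, beside 12.7% of 9522 genes (7.54% higher and 5.19% lower). With 3 at an unadjusted p under 0.05 (Tapbp, H2-Aa and H2-Eb1, all higher with AAV-GFP), the members stood beside 2828 of all 9522 genes. DESeq2 called 0 there and limma-voom with quality weights called these 3, beside 1554 and 2687 genes in all. With AAV-miR-34b/c 1 of 10 was called relative to vehicle, Tapbp, which was higher, beside 12.2% of 9290 genes called higher, 9.75% called lower and 21.9% called in either direction. The median log2 fold change of the 10 genes was −0.14, 0.22 and 0.05 in the 3 comparisons, and that of all genes tested −0.01, −0.01 and 0.02. With libraries scaled by their totals only, the median of all genes was −0.20 between the fibrotic groups and −0.13 with AAV-miR-34b/c relative to vehicle, and the share of calls that were higher moved from 57.9% to 19.1% and from 55.5% to 31.1%. Log2 fold changes given here are those after normalization by trimmed mean of M values (TMM). The groups overlapped for each of the 10 genes in each comparison.

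**Figure D1:**
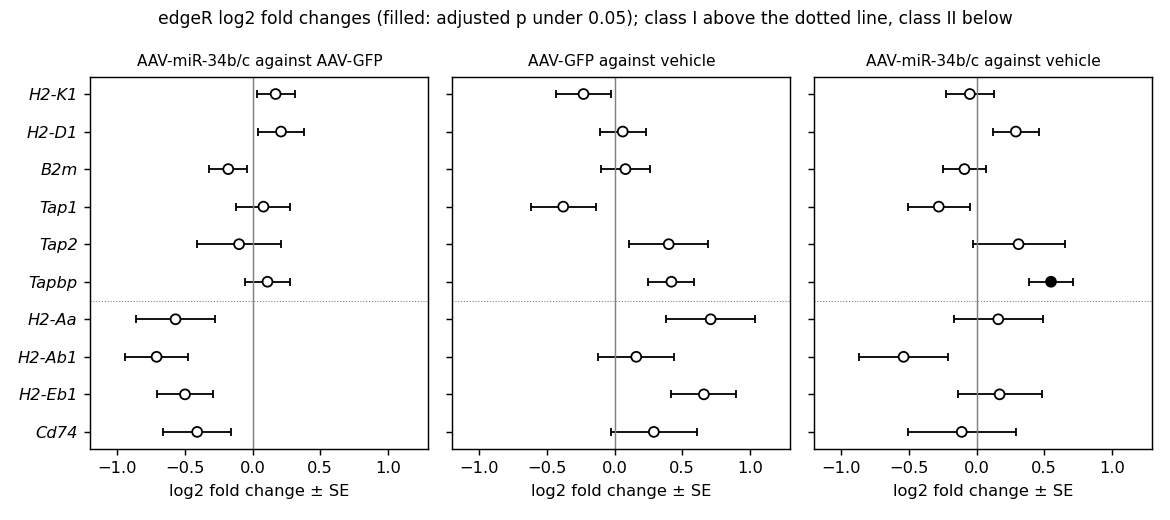
Log2 fold change ± SE (horizontal axis, edgeR) of the 10 MHC genes in 3 comparisons, with class I genes above the dotted line and class II genes below it and filled points for an adjusted p under 0.05. The 4 class II genes sit below 0 in AAV-miR-34b/c against AAV-GFP without a filled point, and Tapbp in AAV-miR-34b/c against vehicle (0.55 ± 0.16) is the only filled point, which was not called with normalization by library size only.

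Promoters of H2-Aa, H2-Eb1, H2-K1 and Tapbp are shown because vehicle 1 and 4 were lowest and AAV-miR-34b/c 5 and 7 highest of their groups for all 4 class II genes, which was not so for any AAV-GFP library, and because H2-K1 and Tapbp are a classical chain and the member with a call. The sequences are from RefSeq on GRCm38.p6, 250 bases before to 50 bases after a start site, 5′ to 3′ on the strand of the gene, with motif matches in capitals. MHC promoters are known for a module of W/S, X and Y boxes, on which RFX, CREB and NF-Y assemble and to which the coactivators CIITA (class II) and NLRC5 (class I) are recruited. The motifs described here, searched on both strands, were the Y box core ATTGG, the X2 box core TGACG, the interferon response element (GAAA, 2 bases of any kind, GAAA) and the κB site (GGG, 2 bases of any kind, TTCCC).
H2-Aa (chr17:34287774-34288073, minus strand): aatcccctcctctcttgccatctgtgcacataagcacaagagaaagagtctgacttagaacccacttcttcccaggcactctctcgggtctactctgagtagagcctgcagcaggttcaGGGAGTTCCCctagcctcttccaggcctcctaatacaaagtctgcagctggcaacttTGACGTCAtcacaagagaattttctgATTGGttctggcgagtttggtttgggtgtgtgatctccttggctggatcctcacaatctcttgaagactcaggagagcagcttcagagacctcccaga
H2-Eb1 (chr17:34305617-34305916, plus strand): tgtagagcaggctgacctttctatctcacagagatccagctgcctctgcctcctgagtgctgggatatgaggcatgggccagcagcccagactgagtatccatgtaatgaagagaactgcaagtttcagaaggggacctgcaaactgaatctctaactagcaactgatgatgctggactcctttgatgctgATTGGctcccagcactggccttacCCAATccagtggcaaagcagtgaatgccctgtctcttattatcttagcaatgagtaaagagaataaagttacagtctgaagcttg
H2-K1 (chr17:34000284-34000583, minus strand, 1 of 2 listed start sites): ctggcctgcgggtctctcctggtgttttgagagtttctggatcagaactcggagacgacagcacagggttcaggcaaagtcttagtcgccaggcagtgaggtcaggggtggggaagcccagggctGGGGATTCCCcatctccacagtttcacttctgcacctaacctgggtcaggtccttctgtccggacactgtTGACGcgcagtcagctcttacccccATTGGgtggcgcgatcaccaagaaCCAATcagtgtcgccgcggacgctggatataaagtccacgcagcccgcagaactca
Tapbp (chr17:33919228-33919527, plus strand): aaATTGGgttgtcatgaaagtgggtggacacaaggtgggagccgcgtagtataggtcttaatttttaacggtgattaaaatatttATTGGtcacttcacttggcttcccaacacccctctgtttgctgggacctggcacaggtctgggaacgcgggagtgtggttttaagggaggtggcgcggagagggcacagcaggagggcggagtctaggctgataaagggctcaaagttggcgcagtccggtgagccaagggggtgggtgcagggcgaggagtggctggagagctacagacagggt

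In the H2-Aa window a κB match began at −131 from the start site, X2 cores on both strands made a single palindrome from −74, and the Y box core was at −48. The H2-K1 window held a κB match at −125, an X2 core at −55 and Y box cores at −30 and −6, the last on the opposite strand. H2-Eb1 held Y box cores at −59 and, on the opposite strand, −35. Tapbp held Y box cores at −248 and −165, and none of the other motifs. Over the 7 members whose promoter was read, which also include B2m, H2-D1 and Tap1, the Y box core was in 7, beside 37.4% of the 32851 promoters in the RefSeq table. The X2 core was in 5 of 7 (20.8% of all promoters), the κB site in 3 (1.75%) and the interferon response element in 1, B2m (3.44%). These matches describe the windows and say nothing about occupancy.

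Neither classical heavy chain was called in any of the 3 comparisons. H2-K1 was at 1092, 2178, 1121, 1062 and 1298 CPM in vehicle libraries 1 to 5. It ranged from 867 to 1454 CPM (median 1141) with AAV-GFP and from 1121 to 1586 CPM (median 1308) with AAV-miR-34b/c. Vehicle 2 was above every other library of the series and the remaining values of the 3 groups overlapped. The log2 fold change was 0.17 ± 0.14 (SE) between the fibrotic groups (adjusted p = 0.652 by edgeR), −0.23 ± 0.20 for AAV-GFP against vehicle (adjusted p = 0.461) and −0.05 ± 0.18 with AAV-miR-34b/c relative to vehicle (adjusted p = 0.873), and without vehicle 2 the comparisons with vehicle gave 0.02 and 0.19.

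H2-D1 was at 567, 540.2, 399, 542 and 502 CPM in the vehicle libraries. With AAV-GFP it ranged from 386 to 662 CPM (median 553) and with AAV-miR-34b/c from 457 to 817 CPM (median 627). AAV-miR-34b/c libraries 1, 2 and 3 were above all AAV-GFP libraries and the other 4 were within the AAV-GFP range. The log2 fold change between these groups was 0.21 ± 0.17 (adjusted p = 0.637 by edgeR; two-sided exact permutation p = 0.231, n = 7 each). Scaled by library totals only, the values of both heavy chains between the fibrotic groups were near 0 and of the opposite sign (−0.03 for H2-K1 and −0.01 for H2-D1).

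B2m, the common light chain, was also the reference gene of the study's real-time PCR. It was at 4505, 5834, 7041, 4600.2 and 6686 CPM in the vehicle libraries, from 5023 to 7110.1 CPM (median 6124) with AAV-GFP and from 4517 to 6688 CPM (median 5428) with AAV-miR-34b/c. Its largest mean log2 difference among the 3 comparisons was that between the fibrotic groups, −0.18 ± 0.14 (adjusted p = 0.626 by edgeR), and the other values were 0.08 ± 0.18 for AAV-GFP and −0.09 ± 0.16 with AAV-miR-34b/c relative to vehicle (adjusted p = 0.813 and 0.715). The close pair of vehicle libraries 1 and 4 held the lowest B2m of that group, and without this pair the AAV-GFP value was −0.12.

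The transporter genes were counted at lower depth, with 29 to 128 counts of Tap1 and 18 to 93 counts of Tap2 per library. Tap1 was at 16.2, 25.7, 35.9, 20.1 and 37.2 CPM with vehicle, from 11.2 to 30.2 CPM (median 22.1) with AAV-GFP and from 13.1 to 26.1 CPM (median 22.3) with AAV-miR-34b/c. Its log2 fold change against vehicle was −0.38 ± 0.24 with AAV-GFP and −0.28 ± 0.23 with AAV-miR-34b/c (edgeR adjusted p = 0.309 and 0.382). Tap2 ranged from 5.93 to 14.8 CPM with vehicle, 7.8 to 25 with AAV-GFP and 7.33 to 27.4 with AAV-miR-34b/c, and its log2 fold changes were −0.10 ± 0.31, 0.40 ± 0.29 and 0.31 ± 0.34 in the 3 comparisons (edgeR adjusted p = 0.925, 0.367 and 0.536). The pair of AAV-miR-34b/c libraries 1 and 2 held the highest Tap2 of that group (19.5 and 27.4 CPM), with the other 5 at 7.33 to 13.6 CPM.

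Tapbp, encoding tapasin, was the member with a call. It was at 126, 119.9, 155, 129 and 141 CPM in the vehicle libraries, from 123 to 231 CPM (median 189.5) with AAV-GFP and from 137 to 247 CPM (median 201) with AAV-miR-34b/c. Of the AAV-miR-34b/c libraries 6 of 7 were above all vehicle libraries, and library 1 (137 CPM) was within the vehicle range. The fold was 1.46 (log2 fold change 0.55 ± 0.16, adjusted p = 0.0216 by edgeR; two-sided exact permutation p = 0.00884). Against vehicle, AAV-GFP gave 0.42 ± 0.17 (adjusted p = 0.109; exact permutation p = 0.0429), with 5 of 7 libraries above all vehicle libraries, and the fibrotic groups differed by 0.11 ± 0.17 (adjusted p = 0.832 by edgeR), or by −0.08 with scaling by library totals. The call against vehicle was lost without vehicle 1 (adjusted p = 0.0564) or vehicle 4 (0.0565), without the close pairs of vehicle 1 and 4 (0.14), AAV-miR-34b/c 3 and 4 (0.0948) or AAV-miR-34b/c 5 and 7 (0.0506), with close pairs summed (0.132) and with library size only (0.0895), while the log2 fold change was between 0.42 and 0.67 in all 13 alternatives other than single libraries left out.

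**Figure D2:**
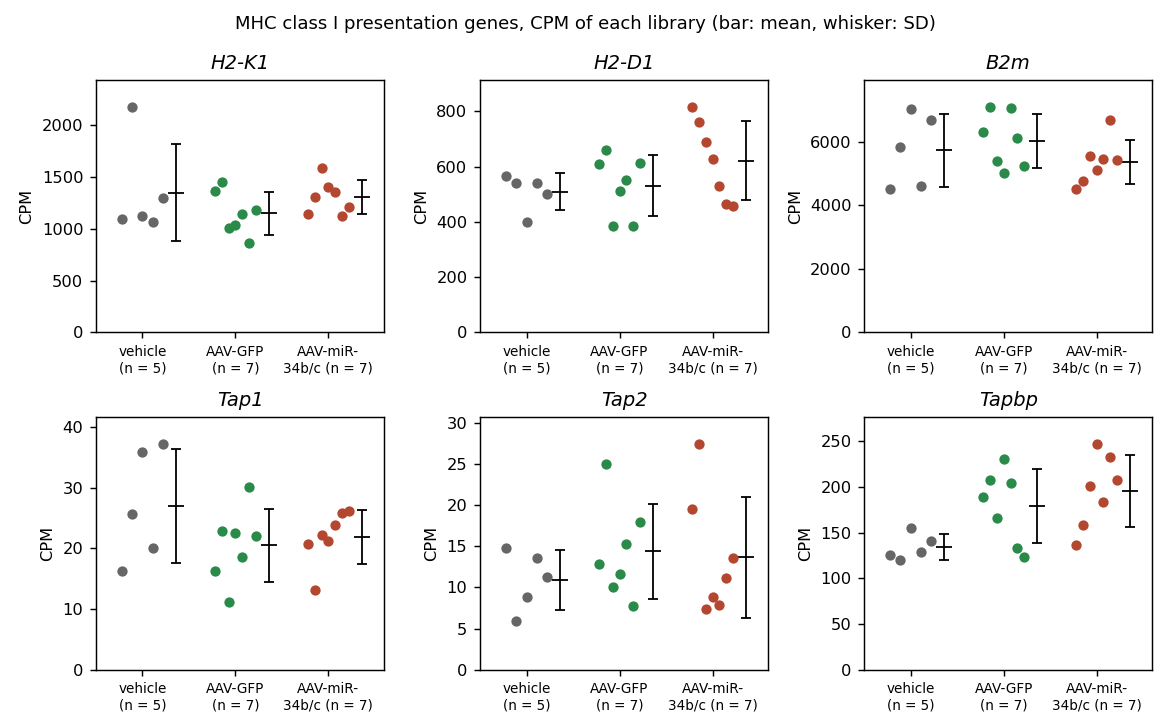
CPM (vertical axes, TMM library sizes) of the 6 class I genes in each library of the vehicle (n = 5), AAV-GFP (n = 7) and AAV-miR-34b/c (n = 7) groups, in order of replicate number, with the mean (bar) and SD (whisker) beside the points. The groups overlap in each panel, and Tapbp shows 6 of 7 AAV-miR-34b/c libraries above the highest vehicle library, at 155 CPM.

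Class II genes varied widely between libraries within the vehicle and AAV-miR-34b/c groups (median SD of log2 CPM 0.84 and 0.57) and less with AAV-GFP (0.32). None was called between groups. H2-Ab1 was at 37.3, 106, 86, 24.9 and 75.9 CPM in the vehicle libraries, from 45.4 to 98.9 CPM (median 72.8) with AAV-GFP and from 25.5 to 76.7 CPM (median 36.9) with AAV-miR-34b/c. Of the AAV-miR-34b/c libraries 5 of 7 were below all AAV-GFP libraries, and libraries 5 and 7 (65.7 and 76.7 CPM) were within the AAV-GFP range. The log2 fold change between the fibrotic groups was −0.71 ± 0.23, a fold of 0.611, which did not pass across all genes (adjusted p = 0.101 by edgeR; two-sided exact permutation p of this gene alone 0.0128, n = 7 each). In bulk liver, fewer cells of a type and less RNA per cell cannot be told apart.

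H2-Aa, the partner chain, was at 23.8, 51.7, 68.2, 19.1 and 61.4 CPM with vehicle, from 27.3 to 126 CPM (median 68.5) with AAV-GFP and from 27.8 to 81.9 CPM (median 44.8) with AAV-miR-34b/c. Its log2 fold change was −0.57 ± 0.29 between the fibrotic groups (adjusted p = 0.361 by edgeR). H2-Eb1 was at 17.6, 31, 41.7, 14.8 and 43.2 CPM with vehicle, from 36.6 to 55.9 CPM (median 45.6) with AAV-GFP and from 20.9 to 55 CPM (median 25.7) with AAV-miR-34b/c. As for H2-Ab1, 5 of 7 AAV-miR-34b/c libraries were below all AAV-GFP libraries and libraries 5 and 7 were not, with a log2 fold change of −0.50 ± 0.21 (adjusted p = 0.251 by edgeR; exact permutation p = 0.0286).

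Cd74, the invariant chain, was at 13.1, 55, 67.4, 15.7 and 62.2 CPM with vehicle, from 37 to 64 CPM (median 52) with AAV-GFP and from 21.9 to 75.7 CPM (median 29.3) with AAV-miR-34b/c. Its log2 fold change between the fibrotic groups was −0.41 ± 0.25 (adjusted p = 0.475 by edgeR). Vehicle libraries 1 and 4 were far below the other 3, with none in between.

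**Figure D3:**
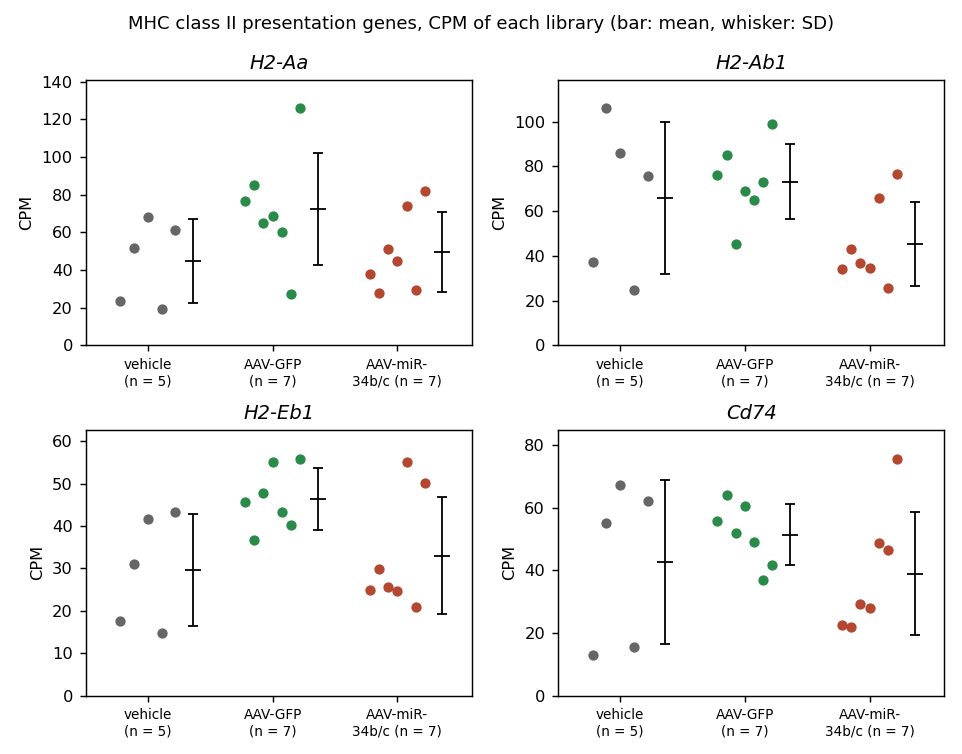
CPM (vertical axes, TMM library sizes) of the 4 class II genes in each library of the vehicle (n = 5), AAV-GFP (n = 7) and AAV-miR-34b/c (n = 7) groups, in order of replicate number, with the mean (bar) and SD (whisker) beside the points. Vehicle libraries 1 and 4 are the lowest of their group and AAV-miR-34b/c libraries 5 and 7 the highest of theirs in all 4 panels.

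Against vehicle, AAV-GFP gave log2 fold changes of 0.71 ± 0.33 for H2-Aa, 0.16 ± 0.28 for H2-Ab1, 0.66 ± 0.24 for H2-Eb1 and 0.29 ± 0.32 for Cd74 (edgeR adjusted p = 0.15, 0.738, 0.0767 and 0.581). AAV-miR-34b/c gave 0.16 ± 0.33, −0.54 ± 0.33, 0.17 ± 0.31 and −0.11 ± 0.40 for these genes (edgeR adjusted p = 0.765, 0.241, 0.722 and 0.865). None passed. The comparisons share the vehicle and AAV-GFP libraries, so their values are not independent of each other.

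Single libraries and close pairs moved these values. The 4 class II genes summed to 91.9 and 74.6 CPM in vehicle 1 and 4 and to 243, 263 and 243 CPM in vehicle 2, 3 and 5. With AAV-GFP the sum ranged from 177 to 323 CPM. With AAV-miR-34b/c it was 244 and 284 CPM in libraries 5 and 7 and 119 to 143 CPM in the other 5. Both low vehicle libraries are 1 close pair and both high AAV-miR-34b/c libraries are another, over all genes and not only over these 4. The SD of log2 CPM, as the median over the 4 genes, was 0.84 with vehicle, 0.32 with AAV-GFP and 0.57 with AAV-miR-34b/c, and over the 6 class I genes 0.36, 0.33 and 0.32.

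**Figure D4:**
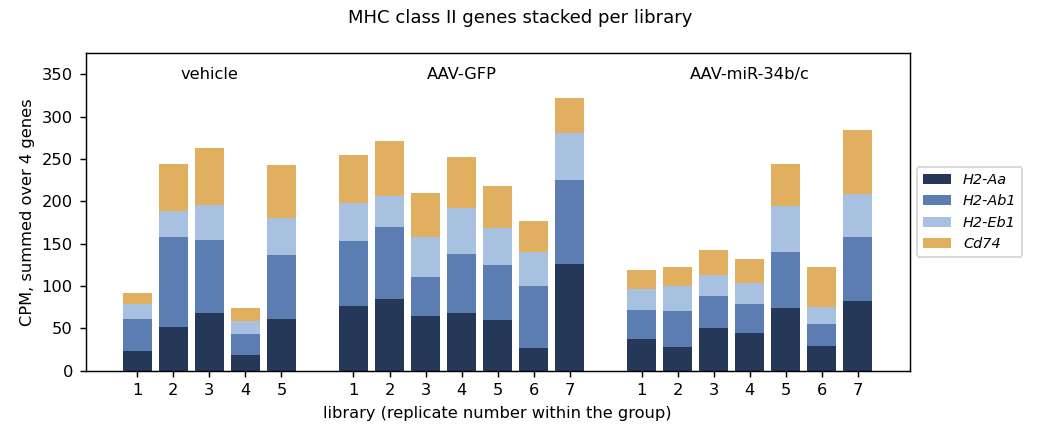
CPM of H2-Aa, H2-Ab1, H2-Eb1 and Cd74 stacked in each library (vertical axis, summed over the 4 genes; horizontal axis, replicate number within the group). Vehicle libraries 1 and 4 reach 91.9 and 74.6 CPM beside 243 to 263 CPM in the other 3, and AAV-miR-34b/c libraries 5 and 7 reach 244 and 284 CPM beside 119 to 143 CPM in the other 5.

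Leaving out the pair of AAV-miR-34b/c libraries 5 and 7, an alternative chosen after the values were seen together with the same step for each of the 7 close pairs, gave 3 calls between the fibrotic groups: H2-Ab1 at −1.09 (adjusted p = 0.0041 by edgeR), H2-Eb1 at −0.89 (0.00535) and Cd74 at −0.80 (0.0467), with H2-Aa at −0.95 (0.089). In that fit 346 genes were called in all. Libraries 5 and 7 were the highest of their group for all 4 class II genes, so lower values were to be found once they were left out. Without library 7 alone H2-Ab1 was at −0.89 (adjusted p = 0.0277, with 302 genes called in all), and with normalization by library size only it was the 1 member called (adjusted p = 0.0428, with 624 genes called in all). With the pair of vehicle libraries 1 and 4 left out, AAV-GFP against vehicle gave −0.29 for H2-Ab1 and −0.26 for Cd74, and AAV-miR-34b/c against vehicle gave −0.28 for H2-Aa and −0.22 for H2-Eb1, without a call. With the pair of vehicle libraries 3 and 5 left out, H2-Eb1 was called higher with AAV-GFP than with vehicle (1.14, adjusted p = 0.0124 by edgeR). Without vehicle 3 or 5, H2-Eb1 was called between AAV-GFP and vehicle (0.83 and 0.84; adjusted p = 0.0426 and 0.0402), without AAV-GFP 6, H2-Aa and Tapbp were (0.86 and 0.49; adjusted p = 0.0421 and 0.0468), and without AAV-GFP 7, Tapbp was (0.50; adjusted p = 0.0397). Wherever libraries were left out here, they lay all above or all below their group's mean for the genes named, so the direction of each shift was fixed by the choice. Direction between the fibrotic groups was the same for the 4 class II genes in all alternatives tried, scaling included.

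Markers of dendritic cells and B cells, which carry class II molecules, were scarce. The 12 dendritic cell markers summed to 7.99 to 13.2 CPM with vehicle, 11 to 28 with AAV-GFP and 13.2 to 22.2 with AAV-miR-34b/c, with Flt3, Cd209a and Ccl22 at 0 in all vehicle libraries. Only 2 of them could be tested between AAV-GFP and vehicle (7.54% of all genes were called higher). Fscn1, an actin-bundling protein of mature dendritic cells, had 3 to 13 counts per vehicle library and 3 to 43 with AAV-GFP, passed the filter through the latter group and was called higher there (log2 fold change 1.51 ± 0.49, adjusted p = 0.0453 by edgeR, a call lost without any 1 of the 5 vehicle libraries or of AAV-GFP 1 to 4, adjusted p = 0.0578 to 0.116, without either close pair of vehicle libraries, 0.149 and 0.184, and with close pairs summed, 0.234) and Zbtb46 was at 0.54 ± 0.41 (adjusted p = 0.387). Because Fscn1 passed through the group in which it was high, a difference was to be found once it was tested. The 9 B cell markers summed to 13.5 to 21.1, 5.43 to 17.5 and 8.35 to 15.6 CPM, with Cd79a at 0 in the vehicle libraries, and Ighm was lower with AAV-GFP than with vehicle (−1.19 ± 0.36, adjusted p = 0.0361 by edgeR, a call lost without vehicle 1, 4 or 5 or AAV-GFP 1, 2 or 3, adjusted p = 0.0557 to 0.117, without each close pair, 0.0696 to 0.318, and with close pairs summed, 0.201). The 9 T cell markers summed to 2.73 to 10.4 CPM over all libraries, with Cd3g and Cd8a at 0 in the vehicle libraries.

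Of the 12 Kupffer cell and macrophage markers, 5 were lower with AAV-GFP than with vehicle and 0 were higher (5.19% and 7.54% of all genes tested), among them Timd4 (−2.13 ± 0.34, adjusted p = 0.000569), Vsig4 (−0.79 ± 0.19, 0.0106), Clec4f (−0.93 ± 0.23, 0.0133) and Cd5l (−0.75 ± 0.19, 0.0151; all by edgeR). Timd4 had 18 to 44 counts per vehicle library, 3 to 19 with AAV-GFP and 1 to 43 with AAV-miR-34b/c. It passed the filter on low counts through the vehicle group, in which it was high. A lower value was therefore to be found once Timd4 was tested against vehicle. Cd5l and C1qb were higher with AAV-miR-34b/c than with AAV-GFP (0.86 ± 0.17 and 0.94 ± 0.19, adjusted p = 0.00553 and 0.00858 by edgeR). They were the 2 called of 11 markers tested there, beside 1.95% of all genes called higher. Against vehicle, Adgre1 (−1.22 ± 0.25, adjusted p = 0.0039) and Timd4 (−1.69 ± 0.48, 0.0196, again testable through the vehicle group) were lower with AAV-miR-34b/c (9.75% of all genes were called lower), while of the 12 markers 7 had a positive and 5 a negative log2 fold change (median 0.02). With close pairs summed, the calls of Vsig4, Clec4f, Cd5l and C1qb and those of Timd4 and Adgre1 with AAV-miR-34b/c were lost (adjusted p = 0.0611 to 0.223). Without a close pair, the AAV-GFP calls were lost for Clec4f (4 of 4 pairs, adjusted p = 0.0584 to 0.0987), Vsig4 (3 of 4, 0.0542 to 0.0867) and Cd5l (3 of 4, 0.073 to 0.109), and the AAV-miR-34b/c calls for Timd4 (3 of 5 pairs, 0.0633 to 0.0705) and Adgre1 (vehicle 1 and 4, 0.0557). The Cd5l call of AAV-GFP against vehicle was also lost without vehicle 4 alone (adjusted p = 0.0503 by edgeR). The macrophage markers summed to 798 and 896 CPM in vehicle 1 and 4, between the 534 CPM of vehicle 2 and the 1017 CPM of vehicle 3. The 7 neutrophil markers summed to 82.5 and 79.2 CPM in vehicle 1 and 4 and to 16.8 to 30.3 CPM in the other 3, and to 64.6 and 63.8 CPM in AAV-miR-34b/c 5 and 7 and to 144 to 1932 CPM in the other 5. In these groups the libraries with more class II RNA were those with less neutrophil marker RNA. With AAV-GFP the neutrophil markers ranged from 14.8 to 75.5 CPM and the highest class II sum, in library 7, stood beside 24.7 CPM of them. The part of any of these cell types in the class II values was not tested.

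The transcriptional regulators of these genes were listed as well. Nlrc5 was at 2.18 ± 2.48 CPM (SD, n = 5) with vehicle, 3.66 ± 1.43 (n = 7) with AAV-GFP and 3.57 ± 1.15 (n = 7) with AAV-miR-34b/c (edgeR adjusted p = 0.386 and 0.378 against vehicle, 0.972 between the fibrotic groups). Ciita had 0 to 12 counts per library and was too low to test (1.06, 1.63 and 1.66 CPM). Of the 14 regulators listed, 12 could be tested. Of these, 1 was called between the fibrotic groups (3.36% of all genes), 0 with AAV-GFP relative to vehicle (12.7%) and 2 with AAV-miR-34b/c relative to vehicle (21.9%). Spi1, the myeloid transcription factor PU.1, was higher with AAV-miR-34b/c than with AAV-GFP (0.87 ± 0.18, adjusted p = 0.00961) and than with vehicle (0.69 ± 0.20, adjusted p = 0.0235 by edgeR), and ranged from 17.9 to 34.4 CPM with AAV-miR-34b/c, 10.8 to 16.1 with AAV-GFP and 11.7 to 16.5 with vehicle, so that the AAV-miR-34b/c libraries did not overlap with the others (1.95% and 12.2% of all genes were called higher against AAV-GFP and vehicle). The call against vehicle was lost without vehicle 1, 4 or 5 (adjusted p = 0.0663, 0.0604 and 0.0504), without the pairs of vehicle 1 and 4 (0.17) or 3 and 5 (0.0634) or of AAV-miR-34b/c 5 and 7 (0.0656) and with library size only (0.0723), and that between the fibrotic groups without the pair of AAV-GFP 1 and 2 (0.0615). Rfxank, a subunit of RFX, was higher with AAV-miR-34b/c than with vehicle (1.52 ± 0.48, adjusted p = 0.0336 by edgeR) on 1 to 25 counts per vehicle library and 9 to 53 with AAV-miR-34b/c, and this call was lost without vehicle 1, 2, 3 or 5 or AAV-miR-34b/c 3, 4 or 6 (adjusted p = 0.0548 to 0.0772) and without the pairs of vehicle 3 and 5 (0.12) or AAV-miR-34b/c 3 and 4 (0.117). Rfxank passed the filter on low counts through the AAV-miR-34b/c group (median 6.07 CPM, and 1.62 CPM with vehicle). A higher value there was therefore to be found once it was tested. Irf1, through which interferon-γ acts on MHC genes, was at 0.20 ± 0.20 between the fibrotic groups (edgeR adjusted p = 0.724). Of 18 genes of the interferon-γ response 13 could be tested between the fibrotic groups, without a call (2 at an unadjusted p under 0.05, beside 1414 of all 9252 genes, and 0 called by DESeq2 and by limma-voom), and 14 in the other comparisons, in which Ifngr1, a receptor chain, was lower with AAV-miR-34b/c than with vehicle (−0.75 ± 0.21, adjusted p = 0.0173 by edgeR) as the 1 call of 14 (9.75% of all genes were called lower), which was lost without the pairs of vehicle 1 and 4 (0.0657) or 3 and 5 (0.0608) or of AAV-miR-34b/c 3 and 4 (0.0932).

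Of 12 other class I heavy chains listed, 8 could be tested, with 1 called between the fibrotic groups (3.36% of all genes), 2 with AAV-GFP relative to vehicle (12.7%) and 2 with AAV-miR-34b/c relative to vehicle (21.9%). H2-Q10, a class I chain that hepatocytes secrete, was at 1981, 2118, 1686, 2041 and 1666 CPM with vehicle, from 1467 to 1966 CPM (median 1769) with AAV-GFP and from 2132 to 3343 CPM (median 2849.7) with AAV-miR-34b/c. The lowest AAV-miR-34b/c library was above the highest of both other groups (1.95% of all genes were called higher between the fibrotic groups). The log2 fold change was 0.62 ± 0.15 against AAV-GFP (adjusted p = 0.0237), 0.51 ± 0.16 against vehicle (adjusted p = 0.0371) and −0.12 between AAV-GFP and vehicle (adjusted p = 0.633, all by edgeR). The AAV-miR-34b/c values went by close pairs, with 3286 and 3343 CPM in libraries 1 and 2, 2867 and 2849.7 in libraries 3 and 4, and 2132 to 2201 in libraries 5, 6 and 7. The same order of these sets of libraries was seen for the neutrophil markers (1932 and 1926 CPM, 405 and 429.6, then 63.8 to 144), and their part in the H2-Q10 values was not tested.

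The H2-Q10 calls were not stable to the handling of these libraries. Between the fibrotic groups the call was lost without AAV-GFP 1 (adjusted p = 0.0633), 2 (0.062) or 3 (0.0539) or AAV-miR-34b/c 3 (0.0569) or 4 (0.0549), without the pairs of AAV-GFP 1 and 2 (0.125) or 3 and 4 (0.0597) or of AAV-miR-34b/c 1 and 2 (0.0551) or 3 and 4 (0.126), with close pairs summed (0.296) and with library size only (0.0518), and the log2 fold change was between 0.41 and 0.73 in all 13 alternatives other than single libraries left out. Against vehicle it was lost without vehicle 1, 3, 4 or 5 or AAV-miR-34b/c 2, 3 or 4 (adjusted p = 0.0505 to 0.0897), without the pairs of vehicle 1 and 4 (0.11) or 3 and 5 (0.174) or of AAV-miR-34b/c 1 and 2 (0.061) or 3 and 4 (0.115), with library size only (0.0759), with no filter on low counts (0.0572) and with close pairs summed (0.275).

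H2-Q7, a Qa-2 antigen gene, was lower with AAV-GFP than with vehicle. It was at 106, 139, 93.9, 121 and 118 CPM with vehicle, from 33.4 to 81.5 CPM (median 57.3) with AAV-GFP and from 57.5 to 151 CPM (median 88.3) with AAV-miR-34b/c. All AAV-GFP libraries were below all vehicle libraries (5.19% of all genes were called lower here), with a log2 fold change of −1.04 ± 0.20 (adjusted p = 0.00288 by edgeR), which was called without each library in turn and in 12 of 12 other alternatives. AAV-miR-34b/c was at 0.72 against AAV-GFP (adjusted p = 0.0977) and at −0.31 against vehicle (adjusted p = 0.285, edgeR). H2-Q1 was higher than with vehicle in both fibrotic groups, at 1.75 ± 0.52 with AAV-GFP (adjusted p = 0.0322) and 2.35 ± 0.41 with AAV-miR-34b/c (adjusted p = 0.00138, edgeR), on 4 to 9 counts per vehicle library, 8 to 69 per AAV-GFP library and 13 to 58 per AAV-miR-34b/c library. With AAV-GFP library 4 was at 19.9 CPM and the next at 7.8 CPM. The gene passed the filter on low counts only through the groups in which it was high, so that a difference was to be found once it was tested, and it passed in 7 of 12 AAV-GFP fits without 1 library. The AAV-GFP call was lost without vehicle 1, 3 or 4 (adjusted p = 0.0825, 0.0609 and 0.0981), without the pairs of vehicle 1 and 4 (0.253) or 3 and 5 (0.0718) and with close pairs summed (0.121).

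**Figure D5:**
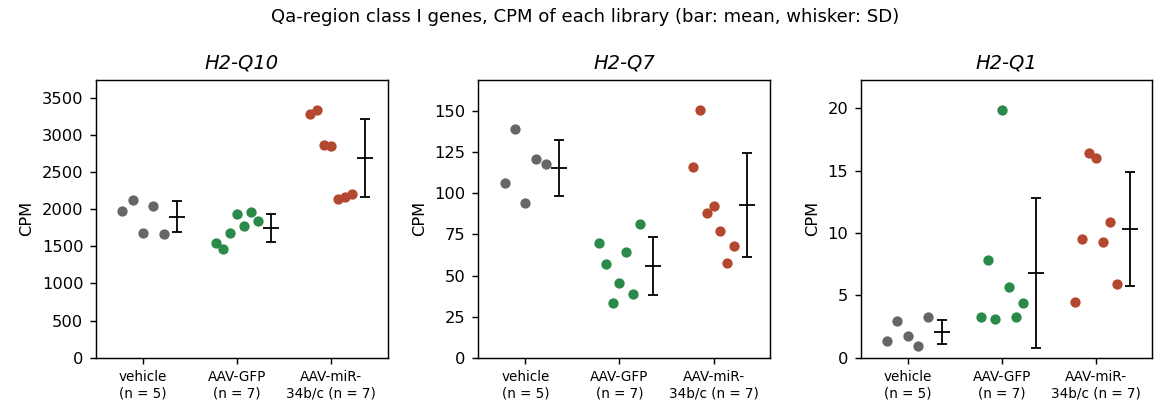
CPM (vertical axes, TMM library sizes) of H2-Q10, H2-Q7 and H2-Q1 in each library of the vehicle (n = 5), AAV-GFP (n = 7) and AAV-miR-34b/c (n = 7) groups, in order of replicate number, with the mean (bar) and SD (whisker) beside the points. For H2-Q10 the AAV-miR-34b/c libraries lie above the others (2132 to 3343 CPM), and for H2-Q7 the AAV-GFP libraries lie below vehicle (33.4 to 81.5 against 93.9 to 139 CPM).

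Of 11 genes that supply peptides to class I molecules, 1 was called lower with AAV-GFP and 1 higher with AAV-miR-34b/c relative to vehicle, beside 5.19% and 12.2% of all genes. Of these 11, 0 were called between the fibrotic groups by edgeR, with 2 at an unadjusted p under 0.05 beside 1414 of all 9252 genes. DESeq2 and limma-voom called 1 each of the 11, beside 574 and 813 genes in all. The smallest p among them was that of Psmb10, an immunoproteasome subunit named after its value was seen (0.54, adjusted p = 0.0896 by edgeR). Psmb8, of the same complex, was lower with AAV-GFP than with vehicle (47.1 ± 10.9 against 73.8 ± 4.34 CPM, SD; −0.64 ± 0.17, adjusted p = 0.0204 by edgeR), while the partner subunit Psmb9 was at −0.71 ± 0.29 (adjusted p = 0.111). Calr, the chaperone calreticulin of the loading complex in which tapasin works, was higher with AAV-miR-34b/c than with vehicle, from 1184 to 1512 CPM against 610.4 to 994 CPM (0.78 ± 0.15, adjusted p = 0.00195 by edgeR). Of the 12 other class II genes, 8 were tested. Between the fibrotic groups edgeR, DESeq2 and limma-voom called 0 of them, beside 3.36% of all genes by edgeR. At an unadjusted p under 0.05 there were 0 by edgeR, beside 1414 of all 9252 genes. The peptide editor H2-DMa was at −0.05 ± 0.30 and its partner H2-DMb1 at −0.46 ± 0.26 between the fibrotic groups (edgeR adjusted p = 0.964 and 0.428), on 6 to 40 counts per library. The calls were those of Ctsh, cathepsin H, a lysosomal protease that is not specific to antigen processing, which was lower than with vehicle in both fibrotic groups (777 ± 56.1 CPM with vehicle, 449.8 ± 136 with AAV-GFP and 346 ± 83.7 with AAV-miR-34b/c; −0.79 ± 0.18 and −1.17 ± 0.17, adjusted p = 0.00977 and 0.000343 by edgeR). Of all genes tested, 5.19% and 9.75% were called lower in these comparisons. With close pairs summed to 1 sample each, which left 3, 5 and 4 samples, the calls of Spi1, H2-Q10, Psmb8, Calr, Rfxank and Ifngr1 and that of Ctsh with AAV-GFP were lost (adjusted p = 0.0548 to 0.296). The Psmb8 call was also lost without the pairs of vehicle 1 and 4 (0.0927) or 3 and 5 (0.0888) or of AAV-GFP 3 and 4 (0.0909), and the AAV-GFP call of Ctsh without vehicle 1 and 4 (0.0717) or AAV-GFP 1 and 2 (0.052) or 3 and 4 (0.0573).

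Reads of near-identical MHC genes can be lost or split in counting. In the last 500 bases of the longest coding transcript, where 3′ libraries read, 0 of 401 windows of 100 bases of each of the 10 genes recurred in another gene, and the same was true of H2-Q10 and H2-Q7. Of H2-Q1 4 windows recurred in H2-Q2. Exact matches only were searched, while aligners allow mismatches, so sharing of reads among heavy chain genes, H2-K1 and H2-D1 included, was not fully tested. The match to the miR-34 seed, CACTGCC, occurred in the longest annotated 3′ UTR of 1 of the 10 genes, H2-D1 (once in 632 bases), beside 13.8% of 21707 genes, and the H2-D1 value between the fibrotic groups was 0.21 ± 0.17.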

How the data were processed

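Liver RNA in 19 libraries was read with a 3′ library kit (QuantSeq, single reads of 100 bases). The authors deposited raw counts per gene from a Digital mRNA-seq pipeline (quality filtering, trimming, alignment, counting), and the submitters' processing notes name STAR and mm10. Annotation release, strand and use of molecular identifiers are not given in the sources used here. A 3′ library counts transcript ends, so counts do not depend on gene length. Of 31053 genes, 31011 received symbols from GENCODE (GRCm38) and 13985 had no count.

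Counts were tested 2 groups at a time with edgeR 4.0.16 in R 4.3.3 (quasi-likelihood test, TMM, filterByExpr with a minimum count of 10 and total of 15, Benjamini-Hochberg threshold 0.05). SE is the log2 fold change divided by the square root of F. CPM use TMM library sizes over the 19 libraries, and exact permutation tests were two-sided on log2 CPM with a prior count of 2. Motifs and positions were read with Python 3.11.15. Scripts were tested on simulated data. Totals were 2214073 to 4145454 with vehicle, 2463842 to 4383805 with AAV-GFP and 2717503 to 5208405 with AAV-miR-34b/c, and the precision of low genes is limited accordingly.

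Alternatives were no filter, DESeq2 size factors, scaling by totals, limma-voom (limma 3.58.1, quality weights), DESeq2 1.42.0, all 3 groups in 1 fit, a replicate block, close pairs (coefficient of variation beyond counting under 0.2) summed, and each library left out. Leaving out each close pair was added after seeing the data. The 10 genes and all lists were chosen with earlier results of these data known. Named are the 10 genes, Nlrc5 and Ciita, from each list at most 4 called genes by adjusted p in each direction, and the first 3 genes of marker lists where they bear on a result. Named outside this rule are Irf1, Psmb9, Psmb10, H2-DMa and H2-DMb1, which were not called, with Psmb10 chosen after its value was seen. The same holds for H2-Q2 and for marker genes without a count in the vehicle libraries. Some genes of the lists are not reported here.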

Additional observations from a re-analysis of the deposited data

Results flagged for a closer look

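Among 72 groups of library values examined (genes and list sums by group), 4 held a library whose gap to its nearest neighbour was beyond Dixon's 95% value, and chance gives about 3.6 of 72. H2-K1 in vehicle 2 was the highest of its group, at a log2 CPM of 11.09 with the next at 10.34. Tap1 in AAV-miR-34b/c 2 was the lowest of its group, at 3.78 with the next at 4.42. The summed genes of class I peptide supply were highest in AAV-GFP 6, at 11.85 with the next at 11.33. The summed T cell markers were lowest in AAV-miR-34b/c 1, at 1.45 with the next at 2.42.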

How the results depend on the processing

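The number of genes called moved with the test and with how the close pairs were handled. Between the fibrotic groups the count was 311, and it was 624 with library size only, 574 with DESeq2, 813 with limma-voom, 69 with close pairs summed, and 137, 720 and 129 without the pairs of AAV-GFP 1 and 2, AAV-miR-34b/c 1 and 2, and AAV-miR-34b/c 3 and 4. For AAV-GFP against vehicle it was 1212, with 2687 by limma-voom, 193 with pairs summed, and 271, 509 and 467 without vehicle 1 and 4, AAV-GFP 1 and 2, and AAV-GFP 3 and 4. With AAV-miR-34b/c relative to vehicle it was 2037, with 3839 by limma-voom, 331 with pairs summed, and 557, 3878, 802 and 1352 without vehicle 1 and 4, AAV-miR-34b/c 1 and 2, 3 and 4, and 5 and 7. Leaving out 1 library gave 209 to 344, 689 to 1859 and 1267 to 2695, with 1859 and 806 without AAV-GFP 6 and 3, 728 and 689 without vehicle 1 and 4 (AAV-GFP against vehicle), and 1328 and 1267 without vehicle 1 and 4 (AAV-miR-34b/c against vehicle). The share of calls that were higher was 59.2% for AAV-GFP against vehicle and 67.4% with library size only, and 46% between the fibrotic groups without AAV-miR-34b/c 1 and 2.

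Of the 10 MHC genes, the count between the fibrotic groups was 1 with library size only and 3 without AAV-miR-34b/c 5 and 7. For AAV-GFP against vehicle it was 3 by limma-voom and 1 without vehicle 3 and 5. With AAV-miR-34b/c relative to vehicle it was 0 with library size only, with pairs summed and without vehicle 1 and 4, AAV-miR-34b/c 3 and 4 or 5 and 7. Leaving out 1 library gave 0 to 1, 0 to 2 and 0 to 1.

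Same-numbered libraries did not deviate together (correlations −0.28 to 0.28), so a replicate block pairs nothing by design. With the block, the genes called were 142, 3088 and 922 in the 3 comparisons and the MHC genes called were 0, 3 and 0, with H2-K1 at 0.07 in AAV-miR-34b/c against vehicle. The calls of Tapbp (adjusted p = 0.11), Spi1 (0.186) and Ifngr1 (0.0677) in that comparison and of H2-Q10 (0.144), S100a8 (0.107), S100a9 (0.158) and Retnlg (0.0545) between the fibrotic groups were lost with the block.

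Signs turned only for values without a call. Between the fibrotic groups, library size only gave −0.03 for H2-K1, −0.01 for H2-D1, −0.09 for Tap1 and −0.08 for Tapbp. Tap2 was 0.09 without AAV-GFP 1 and 2, 0.12 without AAV-miR-34b/c 3 and 4 and 0.01 without 5 and 7, and Tap1 was −0.02 without AAV-GFP 3 and 4. For AAV-GFP against vehicle, values without vehicle 1 and 4 were −0.12 for B2m, −0.29 for H2-Ab1 and −0.26 for Cd74, and H2-D1 was −0.05 without vehicle 3 and 5 and −0.04 without AAV-GFP 1 and 2. With AAV-miR-34b/c relative to vehicle, limma-voom gave 0.12 for H2-K1, −0.19 for Tap2 and 0.29 for Cd74. Without vehicle 1 and 4 it was −0.28 for H2-Aa and −0.22 for H2-Eb1, and without vehicle 3 and 5 it was 0.11 for B2m, 0.09 for Tap1 and 0.49 for Cd74. Without AAV-miR-34b/c 1 and 2 Tap2 was −0.17 and Cd74 0.12, without 3 and 4 Cd74 was 0.04, and without 5 and 7 H2-Aa and H2-Eb1 were −0.21. With 1 library left out, signs turned for Tap1 (−0.02 to 0.20) and Tap2 (−0.36 to 0.09) between the fibrotic groups, for H2-K1 (−0.29 to 0.02), H2-D1 (0.00 to 0.13) and H2-Ab1 (−0.04 to 0.41) in AAV-GFP against vehicle, and with AAV-miR-34b/c relative to vehicle for H2-K1 (−0.13 to 0.19), H2-Aa (−0.05 to 0.36), H2-Eb1 (−0.01 to 0.34) and Cd74 (−0.35 to 0.11). The cause was not tested in any of these. Depth limits Tap1, Tap2, Nlrc5, Ciita, H2-Q1 and the lymphocyte and dendritic cell markers.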

Other observations

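The log2 ratio of H2-Aa to H2-Ab1 within a library, a measure chosen after the values were seen, was −0.63, −1.02, −0.33, −0.37 and −0.30 in vehicle libraries 1 to 5 (mean −0.53). It averaged −0.09 ± 0.62 (SD, n = 7) with AAV-GFP and 0.12 ± 0.35 (n = 7) with AAV-miR-34b/c. The difference was 0.65 for AAV-miR-34b/c against vehicle, 0.44 for AAV-GFP against vehicle and 0.21 between the fibrotic groups, and no test is given for a measure so chosen. The lowest AAV-miR-34b/c library, at −0.61, was within the vehicle range.

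Sinusoidal endothelial markers, which mark cells that take up and present antigen in the liver, gave 1 call of 9 between the fibrotic groups (3.36% of all genes were called), Lyve1, a hyaluronan receptor, which was higher with AAV-miR-34b/c (1.06, adjusted p = 0.0013 by edgeR) and also higher than with vehicle (1.46, adjusted p = 9.34e-05; 12.2% of all genes were called higher), and the call held without each library in turn. Against vehicle 4 of the 9 markers had a positive and 5 a negative log2 fold change (median −0.02). Of the neutrophil markers, S100a8 (4.36), S100a9 (4.31) and Retnlg (3.97) were higher with AAV-miR-34b/c than with AAV-GFP (adjusted p = 0.00243, 0.00415 and 0.00447 by edgeR), the 3 of 7 that could be tested (1.95% of all genes were called higher). Without the pair of AAV-miR-34b/c 1 and 2, which held 1932 and 1926 CPM of neutrophil markers beside 63.8 to 429.6 in the other 5 libraries, they were at 2.69, 2.47 and 3.03 and were called by edgeR. With all libraries of both groups kept, Retnlg was not called by limma-voom (adjusted p = 0.112). Only 2 of the 7 neutrophil markers could be tested between AAV-GFP and vehicle. Retnlg passed the filter on low counts through the AAV-miR-34b/c group, in which it was high. A difference was therefore to be found once Retnlg was tested. Spp1 was above vehicle with AAV-GFP (1.31, adjusted p = 0.00795) and Sox9 was higher with AAV-miR-34b/c than with vehicle (1.40, adjusted p = 0.00223, both by edgeR), both from the cholangiocyte list. In each of these comparisons 2 of the 6 listed markers could be tested and 1 was called, beside 7.54% and 12.2% of all genes called higher. With close pairs summed, the calls of S100a9 (between the fibrotic groups), Spp1 and Sox9 were lost (adjusted p = 0.0618, 0.0509 and 0.0516).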
